A study of Ovis aries with 2 samples.

Results

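T cells were examined in the anterior pituitary of Hu sheep, an indigenous Chinese breed, at 2 ages. Members were selected on measured values: cell barcodes counted as T cells when UMIs of at least 2 of the 3 genes CD3E, CD3D and CD3G were found in them, where a UMI is 1 tagged RNA molecule. They also needed at least 500 genes and 1000 UMIs, and had to hold less than 25% of their UMIs from PRL, 10% from GH, 0.3% from LHB and 0.3% from C1QA, C1QB and C1QC together. This left 738 of 29621 barcodes, of which 47 of 16368 came from the library at 3 months and 691 of 13253 from the library at 6 months. The tissue had been dissociated with collagenase into a cell suspension and captured in droplets, with 1 library per age and no treatment or genetic change in either. How many animals were pooled, and their sex, is not stated in the labels. Age and library cannot be told apart in this design, so every difference below compares those libraries, without a test, and the intervals printed are exact 95% intervals that cover counting error only.

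T cells carry an antigen receptor on their surface together with the CD3 proteins, which pass its signal into the cell. Most receptors pair an alpha with a beta chain, and such cells usually belong either to the CD8 lineage, which kills target cells with granule proteins, or to the CD4 lineage, which helps other immune cells through cytokines and CD40 ligand. In ruminants a further lineage whose receptor pairs a gamma with a delta chain is abundant, and many of its cells carry neither CD4 nor CD8 and lack CD2. The delta chain genes lie inside the alpha chain locus, beside DAD1 and ABHD4.

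At 3 months T cells made up 0.287% of barcodes (0.211 to 0.382) and at 6 months 5.21% (4.84 to 5.61). More T cells and fewer other cells captured cannot be told apart from such shares. The CD3 genes chose the members and are given as a description. All 3 CD3 genes were seen in 18 T cells at 3 months and 250 at 6 months. CD3E was detected in 91.5% and 92.8% of the T cells at 3 and 6 months, CD3G in 95.7% and 94.9%, and CD3D in 51.1% and 48.5%. The limits on hormone and C1Q genes removed 24 and 108 barcodes that held at least 2 CD3 genes. Most of those, 16 and 75, were over the PRL limit, and 4 and 34 were over the C1Q limit. The T cell nearest to the PRL limit had 19.5% of its UMIs from PRL at 3 months and 24.9% at 6 months, while the nearest barcodes left out had 44.4% and 25.1%. For the C1Q genes the nearest members had 0.261% and 0.288%, and the nearest barcodes left out 0.440% and 0.315%.

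Genes outside the rule gave a check on the label. LOC105613374, listed by RefSeq as a receptor constant region beside EPHB6, where the beta chain locus lies, was detected in 41 of 47 and 561 of 691 T cells. LOC101110848, a constant region beside DAD1 and ABHD4, was detected in 31 and 510 T cells. A constant gene of the beta locus or LOC101110848 was seen in 47 of 47 T cells at 3 months and 663 of 691 at 6 months (95.9%). Among barcodes within the other limits but with no CD3 UMI, the shares were 0.689% (64 of 9287) and 5.10% (221 of 4330). Barcodes with exactly 1 CD3 gene were left out by the rule, yet 14 of 79 at 3 months and 259 of 326 at 6 months (79.4%) carried such a constant gene, so the rule passed over some cells of the same kind. IL7R, the interleukin-7 receptor that keeps resting T cells alive, was found in 63.8% and 49.5% of T cells against 2.69% and 24.8% of C1Q-high macrophages. Those were the 1488 and 1387 barcodes with at least 0.3% of their UMIs from the C1Q genes and fewer than 2 CD3 genes. CD2, an adhesion receptor, was found in 27.7% and 24.02% of T cells but in 52.0% and 47.7% of those macrophages, so its share here does not mark T cells.

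The T cells were shallow and not all clean. Their median was 2383 UMIs at 3 months and 3016 at 6 months, and their summed UMIs were 140790 and 3764072. The libraries as deposited hold 142479651 and 175239612 UMIs. Scrublet, a doublet caller, marked 2 and 28 T cells, and none was removed. Barcodes with at least 3 markers of another cell class, a rule chosen after the data were seen, numbered 6 (12.8%) and 76 (11.0%). These mixed barcodes held 21.0% and 35.4% of all T cell UMIs, and at 6 months 33 of them carried markers of stem or folliculostellate cells, 23 of macrophages, 16 of endothelium and 12 of B or plasma cells. Summed macrophage markers reached 163 and 334 CPM in the T cells (CPM gives UMIs scaled to a fixed total, so that groups of unequal depth can be set side by side), with 7 of 14 and 1 of 14 at 0, CD68 and CD14 among the former. B and plasma cell markers summed to 369 and 755 CPM, with 7 of 13 at 0 at 3 months, MS4A1 among them, and 0 of 13 at 6 months. Fibroblast and mural markers summed to 852 CPM at 3 months and 39.1 at 6 months. PRL made up 1.74% and 3.97% of T cell UMIs. Values without the mixed barcodes are given where they bear on a result. Of 81 barcode sequences that occurred in both libraries, 0 belonged to a T cell in both.

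**Figure D1:**
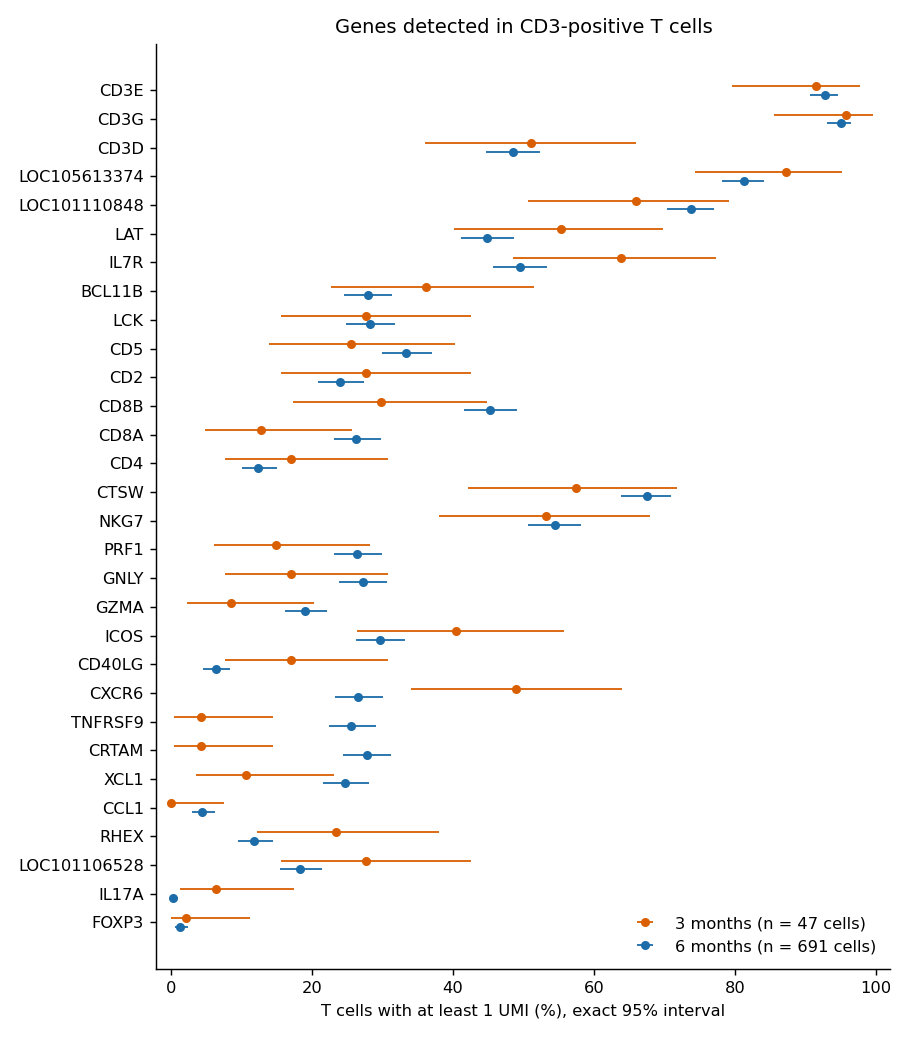
Percent of T cells with at least 1 UMI (horizontal axis, %) of T cell genes and of other genes, at 3 and 6 months. CD3E and CD3G, which chose the members, were found in at least 91.5% of T cells at both ages, and CD2 in 27.7% and 24.02%.

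Cells with CD8A or CD8B and no CD4 were the largest class with a coreceptor. They numbered 16 of 47 at 3 months (34.0%, 20.9 to 49.3) and 339 of 691 at 6 months (49.1%, 45.3 to 52.9). CD4 cells without CD8 numbered 8 (17.02%, 7.65 to 30.8) and 70 (10.1%, 7.98 to 12.6). Cells with UMIs of both were 0 at 3 months, where a limit of 3 counts allows up to 6.38% of cells with such UMIs, and 16 at 6 months (2.32%), while 23 (48.9%) and 266 (38.5%) showed neither. Intervals of the CD8 and CD4 shares at the 2 ages overlapped. Macrophages, with a median of 3906.5 and 4741 UMIs, gave a CD8 share of 5.11% and 6.99% and a CD4 share of 0.0672% and 0.144%, so the T cell shares lay above that background. Because a cell of low depth can miss its coreceptor, T cells with at least 2000 UMIs (33 and 613) were thinned to that number. CD8 cells were then 21.2% and 38.5%, CD4 cells 9.09% and 6.85%, and cells with neither 69.7% and 53.7%.

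Cytotoxic cells were those with at least 2 of the granule genes GZMA, PRF1, NKG7 and GNLY. They made up 27.7% of T cells at 3 months (13 cells, 15.6 to 42.6) and 40.1% at 6 months (277 cells, 36.4 to 43.8), against 0.605% and 1.08% of macrophages. Thinned to 2000 UMIs the shares were 18.2% and 25.3%. GNLY, granulysin, an antimicrobial granule protein, was found in 8 cells at 3 months and 188 at 6 months. Its highest cell held 14 UMIs at 3 months and 184 at 6 months, where 126 cells held 10 or more. CTSW, the granule protease cathepsin W, was seen in 57.4% and 67.4% of T cells, and the chemokine CCL5 in 46.8% and 64.0%. IFNG, the cytokine interferon gamma, was found in only 4 cells (8.51%) and 105 cells (15.2%).

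Helper genes beyond CD4 ranged from rare to more frequent than CD4 itself, which was found in 8 T cells at 3 months and 86 at 6 months. CD40LG, the CD40 ligand with which helper cells license B cells and dendritic cells, was found in 8 T cells at 3 months (17.02%) and 44 at 6 months (6.37%). ICOS, a costimulatory receptor, was found in 40.4% and 29.7%, GATA3, the factor of type 2 helper cells, in 34.0% and 25.9%, and MAF in 31.9% and 19.8%. FOXP3, which defines regulatory T cells, was found in 1 and 9 cells. CXCR5 and IL21, genes of follicular helper cells, were found in 0 cells at 3 months and in 1 and 2 cells at 6 months. At 6 months 5 of the 9 FOXP3 cells were CD4 cells.

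The IL17A cells were few and unequal between the ages. At 3 months 3 T cells (6.38%, 1.34 to 17.5) held 12, 35 and 42 UMIs of IL17A, a cytokine of barrier defence, together with 7, 18 and 14 UMIs of the related IL17F. All 3 showed RORA and MAF, which act in this programme, and a beta locus constant region, and none showed CD4, CD8A or CD8B. The cell with 35 UMIs of IL17A also held 7 UMIs of IL22. The cell with 42 held 6 UMIs of LOC101106528, a gene described below, and no LOC101110848, while the other two had the reverse. At 6 months 2 of 691 T cells (0.289%, 0.0351 to 1.04) held IL17A, with 2 UMIs each and no IL17F, and a further 6 cells held IL17F, at most 7 UMIs. None of the 3 cells at 3 months was mixed or marked as a doublet.

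Cells with TNFRSF9 or CCL1 are called the activated subset here, on those genes alone. TNFRSF9, the costimulatory receptor 4-1BB that appears after receptor stimulation, was found in 2 T cells at 3 months, with 1 UMI each, and in 177 at 6 months (25.6%), with a median of 2 and up to 58 UMIs. CCL1, a chemokine that attracts CCR8-bearing cells, was found in 0 T cells at 3 months, where the same limit of 6.38% applies, and in 31 at 6 months (4.49%, 3.07 to 6.31). Either gene marked 4.26% (0.520 to 14.5) and 25.9% (22.7 to 29.3), and 3.03% and 18.4% after thinning, against 0.134% and 2.52% of macrophages. The intervals did not overlap between ages over all T cells, but they overlapped after thinning (0.0767 to 15.8 at 3 months, from 1 of 33 cells, and 15.4 to 21.7 at 6 months).

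CCL1 came from very few cells. The 31 cells held 3607 UMIs, with a median of 36 and a highest cell of 560, and the 5 highest held 56.4% of them. In 1 cell CCL1 alone was 6.24% of all UMIs. Of all CCL1 UMIs in the 6-month library, 80.0% lay in these T cells. Within the 31 cells, 29 also held TNFRSF9, 28 held XCL1, the chemokine that draws cross-presenting dendritic cells, and 25 were cytotoxic, while 8 were CD8 cells, none was a CD4 cell and 23 showed neither coreceptor. Among the other 660 T cells, TNFRSF9 was in 148, XCL1 in 143 and cytotoxic cells were 252. The CCL1 cells were deep, with a median of 9156 UMIs, and 5 were mixed. Thinned to 2000 UMIs, 26 cells held CCL1, of which 8 were cytotoxic and 1 was a CD8 cell. Among the other 587 thinned T cells, 147 were cytotoxic and 235 were CD8 cells. Intervals of the cytotoxic shares overlapped after thinning (14.3 to 51.8% and 21.6 to 28.8%), but not over all T cells (62.5 to 92.5% and 34.5 to 42.01%). The higher cytotoxic share of CCL1 cells was thus not clear at equal depth.

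**Figure D2:**
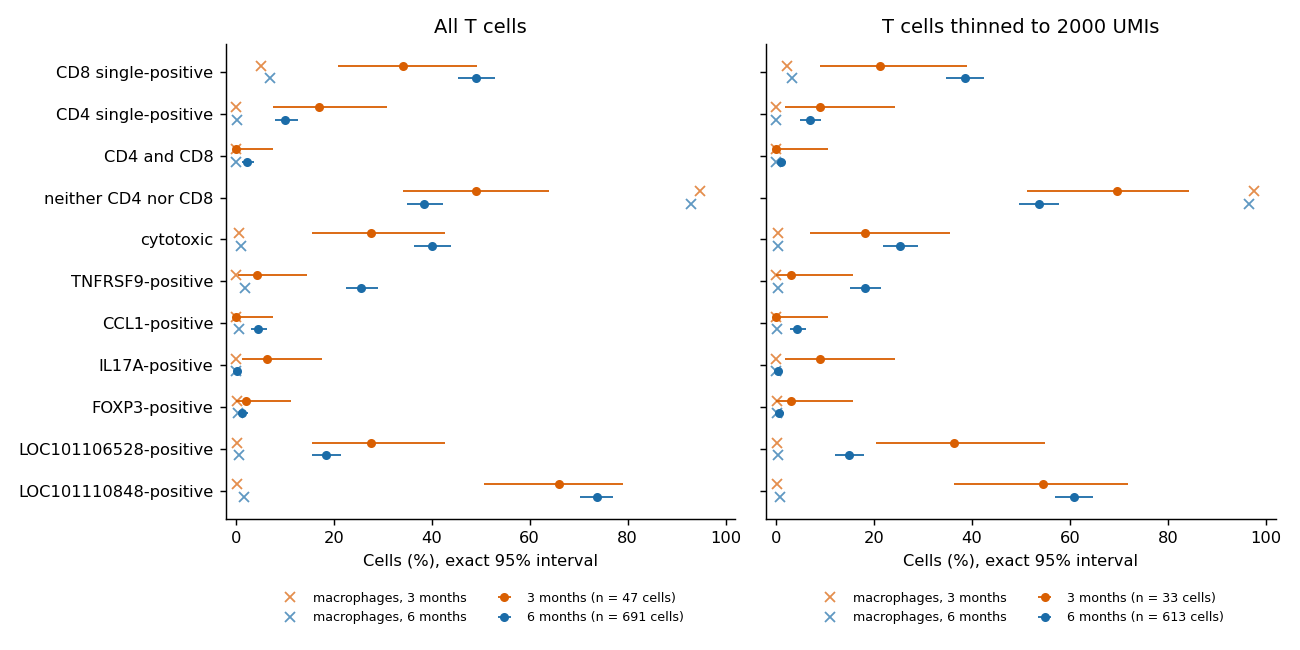
Percent of T cells in each subset (points, with exact 95% intervals as lines) at 3 months and 6 months, and the percent of C1Q-high macrophages with the same genes (crosses). The left panel holds all 47 and 691 T cells and the right panel the 33 and 613 cells thinned to 2000 UMIs, where the intervals for TNFRSF9-positive cells overlap between the ages. Either TNFRSF9 or CCL1 marked 18.4% of thinned cells at 6 months and 3.03%, or 1 cell, at 3 months.

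At 6 months killing genes were higher in CD8 cells and part of the helper genes in CD4 cells. Summed UMIs of the 339 CD8 cells and the 70 CD4 cells were compared as a log2 ratio of CPM, CD8 over CD4. Measured were the 4683 genes with at least 50 UMIs in these cells together. Genes near the level of free RNA were not left out. CD8A, CD8B and CD4 chose the cells and were left out. At least 2-fold higher were 216 genes (4.61% of those measured) and at least 2-fold lower 155 (3.31%). Intervals were clear of 0 for 159 of the 216 and all 155. The choice of scaling moved the split of 216 and 155. By TMM, a scaling that sets the bulk of genes level, it was 310 and 61, and as a mean over cells it was 349 and 211.

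Of the 20 CD8 and cytotoxic genes measured, 15 were at least 2-fold higher in CD8 cells and 0 lower, with a median log2 ratio of 2.30, against −0.09 over all genes. GNLY had 4488 UMIs in the CD8 cells and 2 in the CD4 cells, or 8.72 on the log2 scale (6.87 to 11.8). CTSW had 1745 and 11 UMIs, or 4.90 (4.06 to 5.91), and the ratio in the 16 and 8 cells at 3 months was 4.70 (2.17 to 10.03). KLRD1, the CD94 receptor that cytotoxic T cells share with natural killer cells, stood at 4.07, and KLRK1, or NKG2D, at 2.92. These ratios were 3.75 and 2.54 at 3 months. PRF1, perforin, stood at 3.26, the transcription factor EOMES at 3.82, GZMM at 2.23 and NKG7 at 2.02. GZMA was at 0 UMIs in the CD4 cells and at 340 in the CD8 cells, at least a log2 ratio of 4.42. CCL5 was at 3.07 and, at 3 months, at 3.43 (2.03 to 5.33). In cell counts, 184 of 339 CD8 cells were cytotoxic against 2 of 70 CD4 cells, and at 3 months 11 of 16 against 0 of 8.

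Lower in CD8 than in CD4 cells were 4 of 8 helper genes and all 4 regulatory genes measured. The 8 costimulatory receptor genes measured split, with 3 at least 2-fold higher in CD8 cells and 3 lower. TNFRSF4, the costimulatory receptor OX40, had a log2 ratio of −3.62 (−4.25 to −3.03), the chemokine receptor CCR8 −2.35 and TNFRSF18, or GITR, −1.19. MAF was at −1.82, ICOS at −1.78 (−2.15 to −1.41), GATA3 at −1.35 and IKZF2 at −1.38. ICOS was at −2.16 at 3 months. IL7R was lower in CD8 cells at both ages, with −1.38 (−1.63 to −1.13) and, at 3 months, −1.23 (−2.19 to −0.27). ACKR3, RASL11A, DNAJB4, SAMHD1 and ARID5B lay between −2.41 and −1.57. None of 39 ribosomal protein genes was called in either direction. CST3 and GH, genes of macrophages and somatotrophs, were at 2.59 and 2.44 and at 1.57 and 0.85 without mixed barcodes, of which 39 were CD8 cells and 5 were CD4 cells; their part in these ratios was not tested. CD79A, a B cell receptor subunit, was found in 84 of 339 CD8 cells and 0 of 70 CD4 cells.

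**Figure D3:**
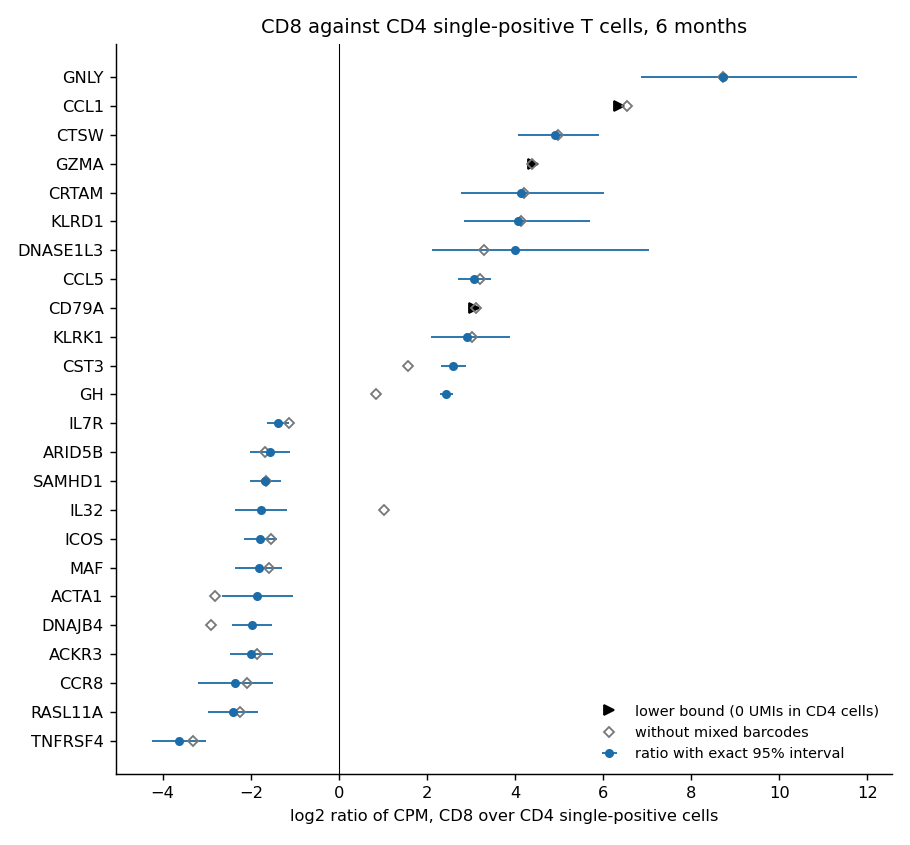
Log2 ratio of CPM in 339 CD8 over 70 CD4 T cells at 6 months (horizontal axis), with exact 95% intervals, for the genes most unequal in each direction. Ratios without mixed barcodes are separate points. GNLY, CTSW and KLRD1 lie far to the right (8.72, 4.90 and 4.07) and TNFRSF4 far to the left (−3.62).

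Cells with TNFRSF9 or CCL1 were compared with the other T cells at 6 months, 179 against 512, over 6375 genes. At least 2-fold higher were 170 genes (2.67%) and at least 2-fold lower 94 (1.47%), with TMM 147 and 129. The subset was deeper, with a median of 4387 UMIs against 2869.5, and 25 and 51 cells were mixed. XCL1 had 3379 UMIs in the activated cells and 497 in the others, a log2 ratio of 3.53 (3.40 to 3.67). CRTAM, an adhesion receptor of activated cytotoxic cells, was at 3.45, and the inhibitory receptors LAG3 and PDCD1 were at 3.16 and 1.19. The adaptor TRAF5 and the kinase BLK were at 2.32 and 2.35, the nucleoside transporter SLC29A1 at 2.46 and TNFRSF18 at 1.33. Activation genes were mixed, with 5 of 23 at least 2-fold higher and 2 lower, and a median of 0.37. Effector cytokine genes had 0 of 7 higher and 2 lower. Immediate early genes had 0 of 25 higher and 1 lower, with a median of −0.53. Of 23 cell cycle genes, 12 were at least 2-fold higher and 0 lower, with a median of 1.15 against 0.08 over all genes. TOP2A was at 2.49, BIRC5 at 2.42, UBE2C at 2.07 and MKI67, a marker of cycling cells, at 1.77.

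At 3 months only 2 cells were of this kind, and of the called genes measured there 2 had the same sign and 4 the opposite sign with intervals clear of 0. Lower in the activated cells at 6 months were IL7R at −1.63 (−1.87 to −1.39), which was at 1.73 (0.87 to 2.50) at 3 months, LTB, lymphotoxin beta, at −1.88, and the CD4 cell genes TNFRSF4 at −1.81, CD40LG at −1.73 and CD4 at −1.68. CD28, the main costimulatory receptor, and CD7 were at −1.02 and −1.28. The early response factor EGR3 was at −1.38 (−1.91 to −0.88). Of the 179 cells, 109 were cytotoxic (60.9%) against 168 of 512 (32.8%), and 5 were CD4 cells against 65. MGP, SPP1, S100A2 and CHGA, genes of stromal and endocrine cells, were at −4.01, −2.35, −1.74 and −1.47. Without mixed barcodes they were at −1.01, −0.49, −0.37 and −0.27.

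A further division followed LOC101106528, a gene without a symbol that RefSeq lists as protein-coding beside DAD1 and ABHD4, and which was picked after its values were seen. It was found in 13 T cells at 3 months (27.7%, 15.6 to 42.6) and 127 at 6 months (18.4%, 15.6 to 21.5), with a median of 6 and 4 UMIs in them. Its cells less often held UMIs of the neighbouring constant region LOC101110848. At 6 months 37 of the 127 held it (29.1%) against 473 of the other 564 (83.9%), and at 3 months 1 of 13 against 30 of 34. RHEX, known as a regulator of red cell growth, was in 71 of 127 (55.9%) against 11 of 564 (1.95%), and at 3 months in 11 of 13 against 0 of 34. Thinned to 2000 UMIs, RHEX was in 36 of 91 (39.6%) against 11 of 522 (2.11%) at 6 months. In both libraries RHEX was more frequent, and LOC101110848 less frequent, in cells with LOC101106528, with intervals that did not overlap.

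Neither CD4 nor CD8 was seen in 94 of the 127 LOC101106528 cells (74.0%) against 172 of 564 (30.5%), and at 3 months in 13 of 13 against 10 of 34. CD8 cells made up 31 of 127 (24.4%) against 308 of 564 (54.6%), and CD4 cells 1 against 69. CD2 was in 8 (6.30%) against 158 (28.0%), and at 3 months in 0 of 13 against 13 of 34. At 6 months TNFRSF9 was in 67 of them (52.8%) against 110 (19.5%), XCL1 in 64 (50.4%) against 107 (19.0%), and 66 were cytotoxic (52.0%) against 211 (37.4%). At 3 months XCL1 was in 3 of 13 against 2 of 34, whereas TNFRSF9 was in 0 of 13 against 2 of 34 and 1 of 13 was cytotoxic against 12 of 34. Of the 31 CCL1 cells, 27 held LOC101106528, 26 held RHEX and 14 held LOC101110848. Among the other 660 T cells, 100 held LOC101106528, 56 held RHEX and 496 held LOC101110848. Of all CCL1 UMIs in T cells, 92.5% lay in LOC101106528 cells and 64.7% in LOC101110848 cells, as some cells held both. Thinned to 2000 UMIs, 20 of 26 CCL1 cells held LOC101106528 against 71 of 587, and without mixed barcodes 22 of 26 against 91 of 589. For LOC101110848 these were 1 of 26 against 372 of 587, and 12 of 26 against 452 of 589.

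**Figure D4:**
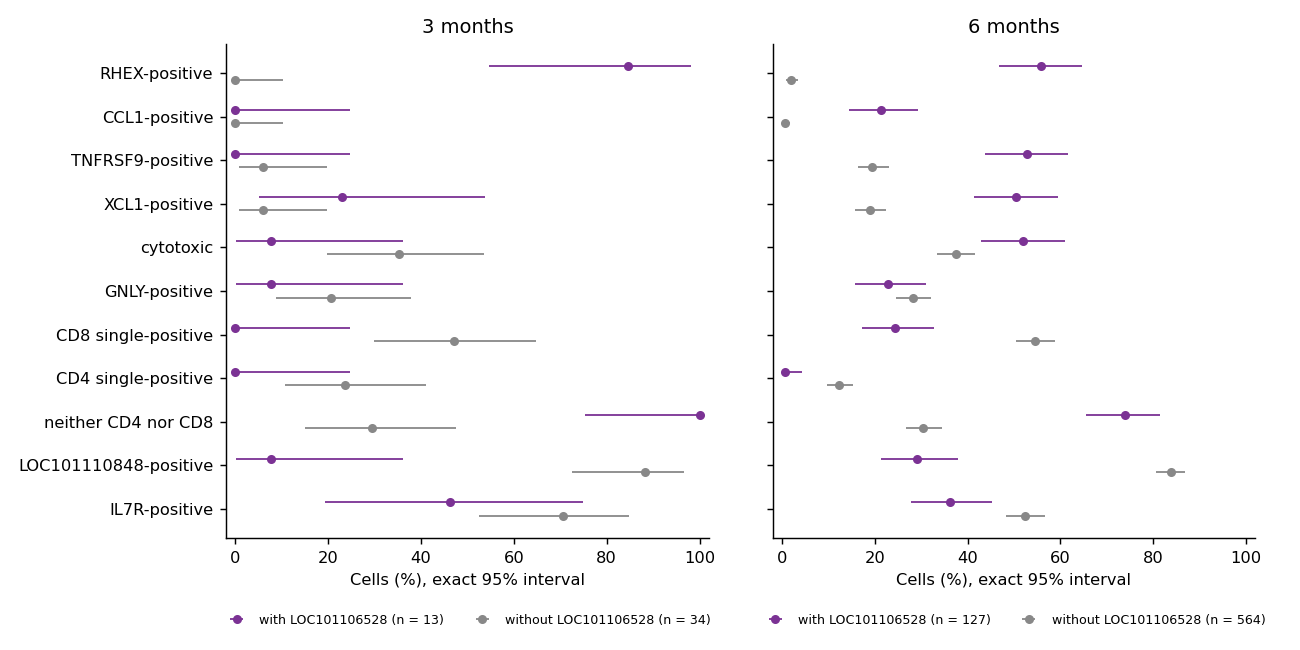
Percent of T cells with each gene or in each subset (horizontal axis, with exact 95% intervals) among cells with and without LOC101106528, at 3 months (13 and 34 cells) and 6 months (127 and 564 cells). RHEX and the absence of both coreceptors went with the gene at both ages, and CCL1, TNFRSF9 and XCL1 at 6 months (CCL1 in 27 against 4 cells).

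Cells with only LOC101106528 (90 at 6 months) were set against cells with only LOC101110848 (473), over 5451 genes. At least 2-fold higher in the former were 132 genes (2.42%) and at least 2-fold lower 339 (6.22%). Intervals were clear of 0 for all 132 and for 249 of the 339. This contrast was chosen after the data were seen. The median depth was close, 3149.5 and 3020 UMIs, and 11 and 43 cells were mixed. RHEX was the most unequal named gene, with 140 against 4 UMIs and a log2 ratio of 7.38 (6.00 to 9.28), and at 3 months at least 4.83. CCL1 was at 4.51, from 1269 against 266 of its 3607 UMIs in T cells, since cells with both genes were left out. XCL1 was at 3.79, CRTAM at 3.34, TNFRSF9 at 3.24, SLC29A1 at 2.46, the pattern receptor TLR2 at 2.57 and the transcription factor BACH2 at 1.96. XCL1 was at −0.32 (−1.24 to 0.53) at 3 months, with 16 against 46 UMIs. Of 14 called genes measured at both ages, 4 had the same sign at 3 months and 4 the opposite sign, with intervals clear of 0. LOC101122689 and LOC101123370, both beside AMPH, where a gamma chain locus lies, were at 2.05 and 2.26, and at 3 months at 2.43 and at least 2.95. The constant regions beside STARD3NL, another gamma chain locus, went both ways, with LOC101108647 at 1.21 (0.73 to 1.67), LOC101110403 at −0.38 (−1.51 to 0.60) and LOC101107518 at −2.25 (−4.16 to −0.85). Of the beta locus genes, LOC105613374 was at −1.64 and, at 3 months, at −1.26. LOC101107504 and LOC101120322 were at −0.69 and −0.33, and LOC101120322 was at 0.98 (0.21 to 1.74) at 3 months.

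Of 19 T cell identity genes measured in that contrast, 7 were at least 2-fold lower and 0 higher. The receptor kinase LCK was at −2.53 (−3.67 to −1.58) and, at 3 months, at −3.04. CD2 was at −2.74, CD28 at −2.58 and SH2D1A, the signalling adaptor SAP, at −1.46. Coreceptors were lower too, with CD8A at −2.78, CD8B at −2.43 and CD4 at 0 against 118 UMIs. TNFRSF4 and GZMK, a granzyme of memory cells, each had 1 UMI against 183 and 138, at −5.26 (−10.6 to −2.76) and −4.85 (−10.2 to −2.35). The chemokine receptor CXCR3 was at −2.52. Of 14 interferon response genes, 3 were lower and 0 higher, with MX1 at −1.91 and IFI6 at −1.41, though MX1 was at 1.07 (−0.32 to 2.45) at 3 months. Cell cycle genes depended on mixed barcodes: CENPF was at 2.36 with them and −3.56 without, and TOP2A at 2.23 and −0.93. PRL, a gene of the selection rule, was at −2.09, at −1.20 without mixed barcodes and at 0.83 at 3 months.

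Between the ages, T cell genes differed in groups. Summed UMIs of the 47 and 691 T cells were compared as a log2 ratio of TMM-scaled CPM, 6 over 3 months, over 6524 genes. At least 2-fold higher at 6 months were 1195 genes (18.3%) and at least 2-fold lower 351 (5.38%). Few UMIs stood behind most of these at 3 months, and 404 higher (6.19%) and 209 lower (3.2%) also had an interval clear of 0. The scaling set the balance: by UMI totals 732 were higher and 720 lower, and by the mean over cells 706 and 882. The median over all genes was 0.25 with TMM, −0.01 with UMI totals and −0.09 with the mean over cells, so values are to be read against 0.25. Each called gene named below whose interval was clear of 0 kept its direction under the other scalings.

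Of 22 CD8 and cytotoxic genes measured, 7 were at least 2-fold higher at 6 months and 0 lower, all 7 with the interval clear of 0, and the median was 0.52. GNLY rested on 30 and 6083 UMIs, with a log2 ratio of 3.25 (2.74 to 3.82), and at 3.57 without mixed barcodes. CRTAM had 2 and 1100 UMIs, a log2 ratio of 4.69 (2.83 to 7.74). TBX21 and EOMES, transcription factors of effector cells, had 1 UMI each at 3 months and 216 and 201 at 6 months, at 3.34 (0.85 to 8.65) and 3.24 (0.74 to 8.55). GZMM was at 1.19 (0.37 to 2.15), and GZMA at 1.04 (0.15 to 2.11) but at 0.35 as a mean over cells. XCL1 was at 1.55 and at 3.31 without mixed barcodes. CD8B, PRF1, NKG7 and CTSW were at 0.57, 0.47, 0.26 and 0.09, short of 2-fold, and by UMI totals NKG7 and CTSW were at −0.07 and −0.24.

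Activation genes showed 9 of 26 at least 2-fold higher and 2 lower, with 7 and 1 clear of 0 and a median of 0.80. TNFRSF9 had 2 and 1105 UMIs, a log2 ratio of 4.70 (2.84 to 7.75). CCL1 had 0 and 3607, at least 5.82 against the limit of 3 UMIs. CD83 was at 1.49, NFKBID, an early NF-kappa-B regulator, at 1.12 (0.06 to 2.44, from 7 UMIs at 3 months) and TAGAP at 1.03. CD69 was at −0.15, or 0.06 without mixed barcodes. Of 8 chemokine genes, 6 were higher and CCL20 was lower, at −1.18 (−2.50 to 0.51). CXCL9 and CXCL10, interferon-induced chemokines of macrophages and other cells, had 0 UMIs at 3 months and 1656 and 1048 at 6 months, at least 4.70 and 4.04. They were at least 2.40 and 1.41 without mixed barcodes, beside macrophage markers of 163 and 334 CPM in the T cells; the part of those markers was not tested. CXCL8 was at 2.53, with 62.1% of its UMIs in 5 cells.

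The IL17 programme was the group lowest at 6 months, with 5 of 9 measured genes at least 2-fold lower and 0 higher, 4 of them clear of 0, and a median of −1.18. IL17A had 89 and 4 UMIs, a log2 ratio of −8.89 (−10.8 to −7.48), and IL17F 39 and 18, at −5.53 (−6.42 to −4.69). All UMIs of both at 3 months lay in the same 3 cells. BLK was at −1.70, MAF at −1.37 and RORA at −0.54, or 0.02 without mixed barcodes. RHEX was at −1.63 (−2.12 to −1.11). Helper genes were higher in 2 of 11, a share near the 18.3% of all genes, and lower in 4, against 5.38% of all genes. The 4 lower ones had intervals clear of 0: CD40LG at −1.83, MAF, CD4 at −1.31 and ICOS at −1.07.

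Of 20 T cell identity genes, 1 was at least 2-fold higher and 2 were lower, with a median of −0.49 against 0.25 over all genes. CD3E, CD3D and CD3G, which chose the members, are among the 20. IL7R had a log2 ratio of −1.16 (−1.44 to −0.88) and CD7 of −1.56 (−2.35 to −0.68). Receptor signalling genes had 0 of 19 higher and 2 lower, among them MALT1, a protease that carries the signal to NF-kappa-B, at −1.50. CXCR6 and ITGA1, genes of tissue-resident T cells, were at −1.43 and −1.55, and RGS1, of the same list, at 1.19. The cytokine receptors IL21R and IL27RA were at 1.58 (0.20 to 3.46) and −1.03 (−1.71 to −0.27). None of the 39 ribosomal protein genes was called.

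Of 14 heat shock genes, 7 were at least 2-fold higher and 0 lower, with a median of 1.00 against 0.25 over all genes. HSPA1A, the inducible HSP70, had 59 and 5438 UMIs, a log2 ratio of 2.11 (1.74 to 2.51), with BAG3 at 1.76, HSPA4 at 1.56, HSP90AA1 at 1.36, HSP90AB1 at 1.30, DNAJA1 at 1.04 and HSPA8 at 1.02. By UMI totals the last 3 were at 0.97, 0.72 and 0.69, short of 2-fold. Immediate early genes had 4 of 25 higher, a share near the 18.3% of all genes, and 0 lower, with IER5 at 2.18, IER3 at 1.76 and BTG2 at 1.17.

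Interferon genes had 2 of 17 higher, against 18.3% of all genes, and 5 lower, against 5.38% of all genes. IRF1 was at 1.86 and ISG20 at 1.20 (0.14 to 2.53, from 7 UMIs at 3 months). MX2 was at −2.70 (−3.56 to −1.76), IFI6 at −1.83 (−2.06 to −1.60), IFI44L at −1.37 and HERC6 at −1.12. Of 24 cell cycle genes, 5 were higher, a share near the 18.3% of all genes, and 9 were lower, against 5.38% of all genes. Intervals were clear of 0 for 3 and 8 of them. PCNA, MCM5 and MCM6, which act in DNA replication, were at 1.51, 2.68 (0.17 to 7.99) and 2.65 (0.15 to 7.97). MCM5 and MCM6 had 1 UMI each at 3 months. CENPF, TOP2A, UBE2C and ASPM, which act in mitosis, were at −3.09, −2.33, −1.94 and −3.34. CENPF, TOP2A and UBE2C were each found in 3 cells at 3 months, and MKI67 in 3 of 47 and 38 of 691 T cells (6.38% and 5.50%).

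Several of the most unequal genes are best known from other cell types. The stromal genes MGP and LUM were at −7.10 and −2.90, with PTGDS, TCIM and C15H11orf96 at −3.03, −2.77 and −2.97, beside fibroblast and mural markers of 852 and 39.1 CPM. Of 367 UMIs of MGP, a matrix protein, at 3 months, 358 lay in 1 cell, and without mixed barcodes MGP was at −3.53 and C15H11orf96 at 0.73. JCHAIN, MZB1 and DERL3, plasma cell genes, were at 4.19, at least 2.59 and at least 2.80, with 75.5% of the JCHAIN UMIs at 6 months in 5 cells and a ratio of 0.83 without mixed barcodes. Without those, MZB1, DERL3 and PTGDS no longer stood above the limit of 3 counts, and all 15 UMIs of PTGDS at 3 months lay in 1 cell. APOBEC3A was at least 3.48, and at least 0.78 without them. CD74, the chaperone of MHC class II, was at 2.83 (2.20 to 3.54) and at 2.40 without them, and S100A4 at 2.97 and 4.08. The parts of other cells in these values were not tested.

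**Figure D5:**
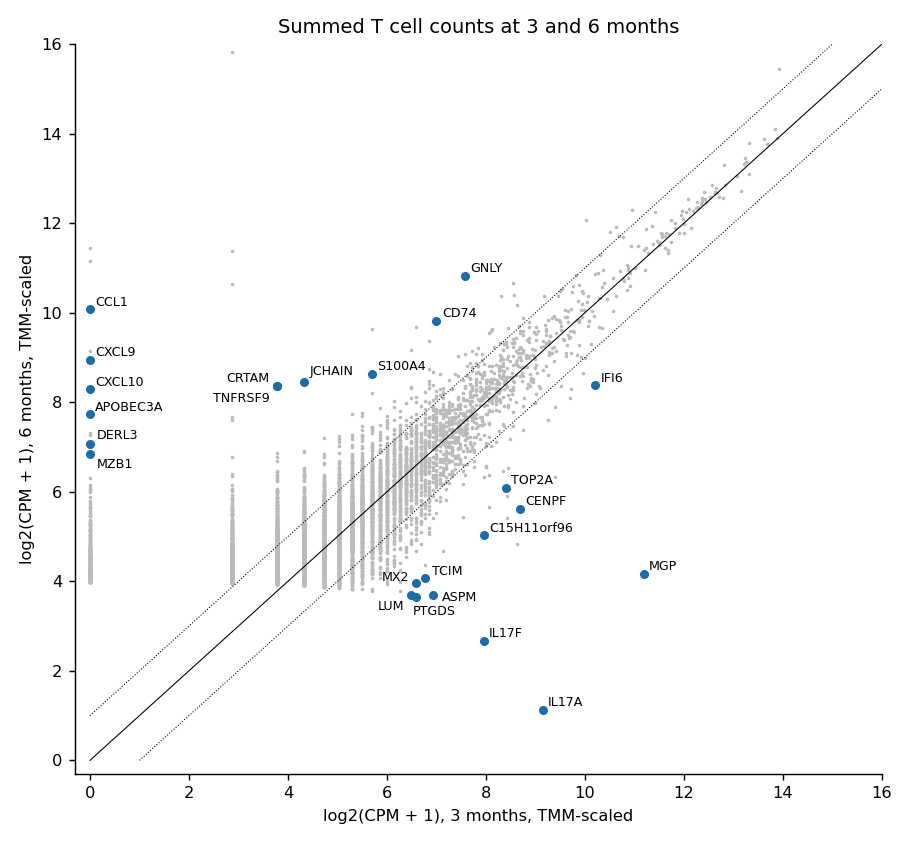
Log2 of TMM-scaled CPM plus 1 of summed T cell counts at 3 months (horizontal axis) and 6 months (vertical axis), 1 point per measured gene, with the line of equality and dotted lines at 2-fold. The named genes are the most unequal ones with a symbol; CCL1, CXCL9 and CXCL10 lie at 0 at 3 months, and IL17A and IL17F lie far below the line (−8.89 and −5.53 as log2 ratios).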

How the data were processed

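Single-cell RNA was measured in 1 library per age. Values are UMI counts per gene and barcode, deposited by the authors in matrices that Cell Ranger wrote; its version is 5.0.1 per the file headers, and the submitters' processing notes name 5.0.0. For genome build and annotation, the sources used here give nothing. No file gives cell types. Of 23141 gene IDs, 22726 (98.2%) matched RefSeq's table of ARS-UI_Ramb_v3.0, used for names and neighbours only. Some T cell genes, GZMB and the receptor chain symbols among them, are not analysed here.

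T cells, subsets and all 39 gene lists were chosen with earlier results of these data known. The ages, activated cells and CD8 and CD4 cells were compared as sums of counts, without a test. Genes needed at least 50 summed counts in the compared cells. Between ages, a called gene also needed at least 0.5 times the level of all barcodes in the library where it was higher. In the activated and LOC101106528 contrasts genes under that level, CGA and PRL among them, were also called. Ages were scaled by TMM (edgeR 4.0.16), other contrasts by UMI totals. Intervals are Clopper-Pearson for shares and exact conditional binomial for ratios (scipy 1.17.1), at 95% confidence, for counting error only, and counts of 0 took a floor of 3. Doublets were called with Scrublet (scanpy 1.11.5) and kept; figures used matplotlib 3.10.9 and numpy 2.4.6. The code was checked on simulated data. Named genes were drawn from the 12 highest and 12 lowest genes with a symbol in each contrast, ordered by the interval bound nearer 0, and from the 24 T cell lists. Not every such gene is given in the text. Genes without a symbol, the mixed barcode rule, the LOC101106528 contrast and the counts of genes with intervals clear of 0 were chosen after the data were seen. Alternatives were looser and stricter cell filters, other scalings, other minimum counts, thinning to 2000 UMIs and leaving out doublets or mixed barcodes.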

Additional observations from a re-analysis of the deposited data

How the results depend on the processing

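The share of T cells depended on the filter. At 3 months it was 0.156% with the stricter filter on genes and UMIs and 0.110% with all 3 CD3 genes required, and at 6 months 4.68% with the looser filter, 3.14% with the stricter, 1.89% with all 3 CD3 genes and 4.64% without mixed barcodes. With at least 2 UMIs required of a marker, CD8 cells were 17.02% and 31.8% at 3 and 6 months, cytotoxic cells 8.51% and 21.6%, cells with TNFRSF9 or CCL1 0% and 15.5%, and CD4 cells at 6 months 2.46%. With all 3 CD3 genes, TNFRSF9 or CCL1 marked 0% and 37.2%, cytotoxic cells at 6 months were 45.6% and IL17A cells 0%. With the stricter filter CD4 cells at 6 months were 14.0% and TNFRSF9 or CCL1 cells 32.1%. Thinned at 6 months, CD8 cells were 38.5%, CD4 cells 6.85%, cytotoxic cells 25.3% and TNFRSF9 or CCL1 cells 18.4%.

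Between ages, counts of genes at least 2-fold higher and lower were 404 and 209 with the interval clear of 0, 732 and 720 by UMI totals, 796 and 670 by those without hormone genes, 706 and 882 by the mean over cells and 743 and 129 at 100 summed counts. Lower genes were 148 with all 3 CD3 genes, 174 without mixed barcodes and 1113 at 10 summed counts. For CD8 over CD4 cells they were 94 and 58 at 100 counts and 133 and 80 without mixed barcodes, with 61 lower by TMM, 349 higher by the mean over cells and 459 higher at 2 UMIs. For activated cells they were 306 and 167 by the mean over cells, 266 and 259 at 2 UMIs, 91 and 32 at 100 counts and 327 higher without mixed barcodes. For LOC101106528 cells they were 65 and 104 at 100 counts, with 214 higher by the mean over cells. Among values at least 2-fold apart, direction turned for C15H11orf96 between ages (0.73) and IL32 between CD8 and CD4 cells (1.03, from −1.78) without mixed barcodes, and in the LOC101106528 contrast for TOP2A (−0.93) and CENPF (−3.56, and −0.0032 by the mean over cells). The cause was not tested. Of the remaining values, 865 for single genes stayed within their spread and 191 moved. Low depth limits the 3-month library, where 47 T cells hold 140790 UMIs and a gene with 1 or 2 UMIs has an interval spanning several log2 units. A contrast of IL17A cells was not run, since 2 cells remained at 6 months. No paired analysis was possible because each age has 1 library.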

Other observations

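Receptors for pituitary and peripheral hormones were scarce in the T cells. The glucocorticoid receptor NR3C1 was found in 8 of 47 cells at 3 months and 149 of 691 at 6 months (21.6%), the thyroid hormone receptor THRA in 2 and 45, IGF1R in 2 and 41 and the growth hormone receptor GHR in 2 and 24. ESR1 was found in 0 and 11 cells, and PGR, MC2R, MC5R and FSHR in none at either age. DRD2, also a lactotroph gene, was in 0 and 40 cells, and its UMIs at 6 months were 97. Among cytokines, TNF was found in 7 and 179 cells, LTB in 16 and 300, TGFB1 in 7 and 230 and IL2 in 0 and 7. IL4 was found in 0 and 10 cells and IL13 in 0 and 3, where 20 of its 22 UMIs lay in 1 cell. IL3 was not seen at either age.

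LOC114108841, a protein-coding gene without a symbol that was picked after its values were seen, had 1 UMI in T cells at 3 months and 195089 at 6 months. Those lay in 383 cells, of which 231 held 1 UMI, and 5 cells held 69.7% of them. In 1 cell it made up 80.4% of all UMIs. GH was found in 500 T cells at 6 months, and 5 of them held 76.7% of its 14327 UMIs.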
